A study of Mus musculus with 4 samples.

Results

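The genes described here encode the signaling core of the T cell receptor in CD8+ T cells: the CD3 chains *Cd3d*, *Cd3e* and *Cd3g*, the zeta chain *Cd247*, the co-receptor chains *Cd8a* and *Cd8b1*, the kinases *Lck* and *Zap70*, and the adaptor *Lat*. They were chosen by symbol for their place at the start of receptor signaling and not by a rule on their measured values, though earlier results of these data were known. They are 9 of the 15981 genes listed in at least 1 of the deposited tables. RNA was sequenced from Tc1 and Tc9 cells that had infiltrated subcutaneous B16 tumors, a mouse melanoma, with 2 libraries per group. Both groups started from CD8+ T cells of Pmel-1 mice, which are Thy1.1+, on the C57BL/6 background, and carry a TcraTcrb transgene, so that the transferred cells of both groups shared 1 receptor for a melanoma antigen. The methods describe stimulation of both groups with antibodies against CD3 and CD28, or in some experiments with peptide. Tc1 cells were polarized with recombinant human IL-2, and Tc9 cells with IL-4, TGF-β and an antibody against IFN-γ. After polarization the methods name further culture with IL-2 without setting the groups apart, and the culture lasted 5 days in all. The cells were then given to Thy1.2+ B6 mice with 10-day tumors and sorted from the tumors 14 days later. For this tumor model the methods name cyclophosphamide before the transfer, and peptide-pulsed dendritic cells and IL-2 after it, for both groups. The RNA of several mice was pooled into each library, the number of mice per library is not known, and the markers of the sorting gate and the age of the mice are not given in the sources used here.

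The receptor on the surface of an αβ T cell binds peptide on MHC through its α and β chains, which have short tails that carry no signal. The signal is passed on by the CD3 γ, δ, ε and ζ chains that assemble with them, whose tails hold tyrosine motifs (ITAMs). CD8 binds MHC class I and brings the kinase LCK to the receptor, LCK phosphorylates the ITAMs, ZAP70 docks on them, and ZAP70 then phosphorylates the adaptor LAT, on which the calcium and RAS branches are built.

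Each deposited table lists genes in the character order of their numeric identifiers and reaches a different point in that order, so the genes are not covered alike. *Cd3d*, *Cd3e*, *Cd3g*, *Cd247*, *Cd8a* and *Cd8b1*, 6 of the 9 genes, are reached by all 4 libraries. *Lck* and *Lat* are reached by 3 libraries, Tc1 replicate 2 and both Tc9 libraries, and *Zap70* by the replicate 2 library of each group alone. Each table gives a gene's expected count, the reads estimated to come from it, and its FPKM, in which fragments are scaled by transcript length and by library size. The depth was nearly equal, between 30822953 and 31927162 counts per library. The constant-region genes of the receptor chains, *Trac*, *Trbc1*, *Trbc2* and *Trdc*, were not analysed here.

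The libraries held RNA of CD8+ T cells by their markers. All 6 CD8 T cell markers, which are the CD3 and CD8 genes above, had 2758 counts or more in every library, whereas *Cd4* had between 45 and 58. Most markers of other cells were at or near 0, and a few moved with the group. Of the 11 myeloid markers, 8 had at most 3 counts in both replicate 2 libraries, and *Cd68* had 226 and 221 counts in Tc1 cells against 358 and 439 in Tc9 cells. Among B cell markers, *Ms4a1* had at most 4 counts, while the counts of *Cd79b* were 155 in Tc1 replicate 2, against 380 and 473 in Tc9 cells. Of the 3 NK cell markers, *Ncr1* and *Klrb1c* had at most 8 counts, and *Eomes*, which CD8+ T cells also express, had 2965 in Tc1 replicate 2 and 2074 and 1886 in Tc9 cells. Of the 5 melanoma markers that both replicate 2 libraries reach, 3 had at most 3 counts in both, and *Pmel* had 69.97 in the Tc1 and 117 in the Tc9 library. Of the 5 endothelial or stromal markers, *Pecam1* had 445 and 446 counts in the replicate 2 libraries and the others at most 12. The summed level of the myeloid markers in CPM, a count relative to library size, was 12.5 in Tc1 replicate 2 and 20.3 in Tc9 replicate 2. *Foxp3*, a regulatory T cell factor that only the replicate 2 libraries reach, had 34.6 counts in the Tc1 library and 1592 in the Tc9 library. The part of any of these in the results below was not tested. In bulk RNA, fewer cells with a transcript and less of it per cell cannot be told apart.

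Among the CD3 chain genes, transcripts of *Cd3e* and *Cd3g* were higher in Tc9 than in Tc1 cells, those of *Cd3d* lay on the same side by a smaller amount that did not pass the test after adjustment, and those of the ζ chain gene *Cd247* lay at nearly the same level in both groups. The 3 CD3 genes are neighbors on chromosome 9 and span 40092 bases in the mouse assembly GRCm38.p6 (the mm10 assembly named in the submitters' processing notes). *Cd3g* lies at chr9:44969572-44980431 on the minus strand, *Cd3d* at chr9:44981769-44987052 on the plus strand and *Cd3e* at chr9:44998735-45009663 on the minus strand. *Cd3g* and *Cd3d* are transcribed away from each other from starts 1355 bases apart, and the start of *Cd3e* lies 27825 bases beyond that of *Cd3d*. *Cd247* is on another chromosome, at chr1:165779952-165871153 on the plus strand, where its span shares 6004 bases with that of *Pou2f1*. Because these 3 neighbors all had higher values in both Tc9 libraries, their promoter windows from RefSeq (GRCm38.p6) are shown, each running 5′ to 3′ on the strand of its gene from 250 bases before the start. Capitals mark the E-box CAGGTG or its reverse complement CACCTG, the kind of motif bound by E proteins. The windows are chr9:44980382-44980681 for *Cd3g*, chr9:44981536-44981835 for *Cd3d* and chr9:45009562-45009861 for *Cd3e*.
Cd3g: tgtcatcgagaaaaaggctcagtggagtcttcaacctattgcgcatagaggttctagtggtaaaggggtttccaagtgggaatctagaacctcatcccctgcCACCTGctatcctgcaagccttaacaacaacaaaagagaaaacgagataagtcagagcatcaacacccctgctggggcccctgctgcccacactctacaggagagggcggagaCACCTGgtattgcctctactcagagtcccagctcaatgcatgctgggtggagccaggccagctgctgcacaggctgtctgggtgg
Cd3d: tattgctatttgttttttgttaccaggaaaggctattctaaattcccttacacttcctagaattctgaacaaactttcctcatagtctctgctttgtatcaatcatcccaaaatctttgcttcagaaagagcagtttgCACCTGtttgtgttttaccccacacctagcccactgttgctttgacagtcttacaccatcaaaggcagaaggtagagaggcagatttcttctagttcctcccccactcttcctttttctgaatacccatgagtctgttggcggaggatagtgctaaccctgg
Cd3e: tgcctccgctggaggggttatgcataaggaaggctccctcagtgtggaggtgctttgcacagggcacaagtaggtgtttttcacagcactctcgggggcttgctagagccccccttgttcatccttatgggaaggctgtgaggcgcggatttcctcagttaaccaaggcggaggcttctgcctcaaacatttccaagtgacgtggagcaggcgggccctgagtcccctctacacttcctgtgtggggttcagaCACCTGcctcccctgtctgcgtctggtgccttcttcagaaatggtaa

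The *Cd3g* window held 2 E-box matches, beginning 148 and 35 bases before the start, the *Cd3d* window held 1, beginning 112 bases before it, and the *Cd3e* window held 1, beginning 3 bases after it. Of the 9 genes, 8 had a promoter window in the reference table, and *Cd8b1* had none. The E-box was found in a window of 6 of these 8 genes, all but *Cd8a* and *Lat*, and in 20.2% of all 32851 promoter windows in the table. The ETS motif GGAAGT or ACTTCC was found for 5 of the 8 genes (*Cd247*, *Cd3d*, *Cd3e*, *Lck* and *Zap70*) and in 23.8% of all windows, and the RUNX motif TGTGGT or ACCACA for 3 (*Lat*, *Lck* and *Zap70*) and in 16.8%. The SP1 motif GGGCGG or CCGCCC was found for 2 (*Cd3g* and *Lck*) and in 35.7% of all windows, and the GATA motif AGATAA or TTATCT for 1 (*Cd3g*) and in 11.2%. No window of these 8 genes held the TATA letters TATAAA or TTTATA, which 13.6% of all windows held. Some genes have more than 1 window, 11 in all for the 8 genes, so their share is not measured over the same unit as the background, and a match is a description of letters and not of binding.

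*Cd3e* encodes the CD3 ε chain, which pairs with both δ and γ. Its counts were 3046 and 2758 in Tc1 replicates 1 and 2 and 3827 and 5743 in Tc9 replicates 1 and 2, and its FPKM values were 73.7, 66.9, 94.99 and 144 in the same order. Both Tc9 libraries lay above both Tc1 libraries, and Tc9 replicate 2 stood well above the other Tc9 library. The log2 fold change, Tc9 minus Tc1, was 0.73 ± 0.17 (SE, 2 libraries per group), a 1.65-fold difference, with an adjusted p of 0.0108 by the quasi-likelihood test of edgeR over the 1284 genes tested in 4 libraries. The Tc9 libraries differed from each other by 0.59 on the log2 scale for this gene, where 95% of the 628 genes with a mean of at least 1000 counts differed by 0.48 or less. Without Tc9 replicate 2 the log2 fold change was 0.40, and without Tc9 replicate 1 it was 0.99. Without Tc1 replicate 1 or Tc1 replicate 2 it was 0.80 and 0.66. The adjusted p missed the threshold by limma after quantile normalization (0.0589) and in edgeR with no filter on low counts (0.1002).

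*Cd3g* encodes the CD3 γ chain and had the highest FPKM of the 9 genes in every library that reaches all of them. Its counts were 7015 and 7588 in Tc1 and 10944 and 9467 in Tc9 cells, and its FPKM values were 249, 271, 399 and 348. The groups did not overlap, and the replicates of each group lay closer together than the groups did. Tc9 cells exceeded Tc1 cells by a log2 fold change of 0.49 ± 0.11 (SE, 2 libraries per group), a 1.40-fold difference, with an adjusted p of 0.00995 in edgeR. Leaving out Tc1 replicate 1 or Tc1 replicate 2 gave 0.43 and 0.55, and leaving out Tc9 replicate 1 or Tc9 replicate 2 gave 0.38 and 0.59. With no filter on low counts the adjusted p was 0.0562 in edgeR, which missed the threshold.

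*Cd3d* encodes the CD3 δ chain. Its counts were 3937 and 3936 in Tc1 and 4747 and 4534 in Tc9 cells, at FPKM values of 104, 104, 128 and 124. Both Tc9 libraries again lay above both Tc1 libraries, which agreed within 1 count. The difference on the log2 scale was 0.24 ± 0.11 (SE, 2 libraries per group; 95% interval 0.0037 to 0.48), and its adjusted p of 0.104 in edgeR did not pass the threshold of 0.05. Without Tc9 replicate 1 or Tc9 replicate 2 the log2 fold change was 0.21 and 0.27. Without Tc1 replicate 1 or Tc1 replicate 2 it was 0.24 and 0.24.

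*Cd247* encodes the ζ chain, whose tail carries more ITAMs than those of the other chains. Its counts were 5058 and 5067 in Tc1 and 4670 and 5111 in Tc9 cells, at FPKM values of 102, 103, 96.3 and 107. The Tc1 libraries lay between the Tc9 libraries, so the groups overlapped. Its log2 fold change was -0.05 ± 0.11 (SE, 2 libraries per group) with an adjusted p of 0.762 in edgeR, and its sign turned under quantile normalization, at 0.087. The 95% interval of the difference ran from -0.29 to 0.20, which leaves out the fitted values of *Cd3e* and *Cd3g*.

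**Figure D1:**
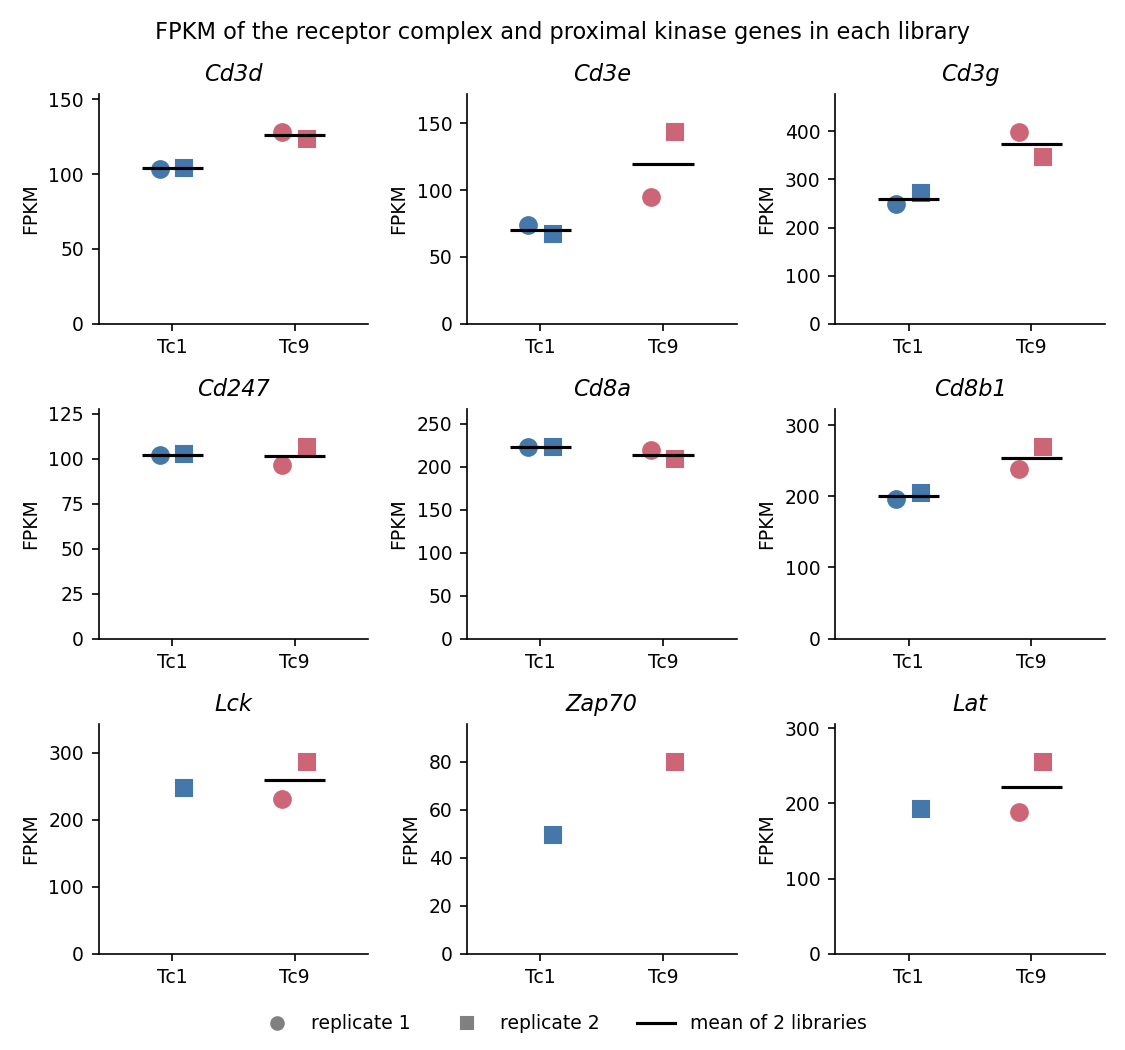
FPKM (fragments scaled by transcript length and library size, linear axes from 0) of the 9 genes in each library, with circles for replicate 1, squares for replicate 2 and a line at the mean where a group has 2 libraries. The Tc9 libraries lie above the Tc1 libraries for Cd3d, Cd3e, Cd3g and Cd8b1, slightly below them for Cd8a (whose log2 fold change turned to 0.21 under quantile normalization), and on both sides of them for Cd247.

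Because FPKM divides by transcript length, the chains can be set beside each other within a library. The summed FPKM of *Cd3d*, *Cd3e* and *Cd3g* was 427 and 442 in Tc1 and 622 and 615 in Tc9 cells, so the sum differed less between the Tc9 replicates than *Cd3e* alone did. The share of *Cd3e* in that sum was 17.3% and 15.1% in Tc1 and 15.3% and 23.4% in Tc9 cells, and the share in Tc9 replicate 1 lay within the Tc1 range. *Cd3g* held the largest share in every library, between 56.5% and 64.1%.

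The level of *Cd247* relative to each CD3 gene was lower in both Tc9 libraries. The FPKM ratio of *Cd247* to *Cd3g* was 0.409 and 0.378 in Tc1 and 0.241 and 0.306 in Tc9 cells. The ratio of *Cd247* to *Cd3e* was 1.38 and 1.53 in Tc1 and 1.01 and 0.741 in Tc9, and the ratio of *Cd247* to *Cd3d* was 0.981 and 0.986 in Tc1 and 0.750 and 0.862 in Tc9. None of these 3 ratios overlapped between the groups, as was the case for the levels of 70.4% of single genes. They share *Cd247* as numerator and restate the differences of the CD3 genes given above. The ratios were not tested, and an exact two-sided permutation test of 2 against 2 libraries cannot give a p below 0.333.

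The co-receptor genes lie side by side on chromosome 6, *Cd8b1* at chr6:71322788-71337492 and *Cd8a* at chr6:71373427-71379171, with 35934 bases between them. They differed from each other in their direction: the values of *Cd8b1* were higher in Tc9 cells and those of *Cd8a* slightly lower, though not under quantile normalization, and neither passed the test after adjustment. *Cd8b1* encodes the β chain, which with the α chain forms the CD8αβ co-receptor. Its counts were 7957 and 8298 in Tc1 and 9469 and 10600 in Tc9 cells, at FPKM values of 196, 204, 239 and 269. Both Tc9 libraries lay above both Tc1 libraries. The log2 fold change was 0.31 ± 0.11 (SE, 2 libraries per group; 95% interval 0.066 to 0.55) with an adjusted p of 0.0521 in edgeR, just over the threshold, and under DESeq2 the adjusted p was 0.0361. Without Tc9 replicate 1 or Tc9 replicate 2 the log2 fold change was 0.39 and 0.22. Without Tc1 replicate 1 or Tc1 replicate 2 it was 0.27 and 0.34.

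*Cd8a* encodes the α chain, which binds LCK and can also pair with itself. Its counts were 21622 and 21532 in Tc1 and 21166 and 19330 in Tc9 cells, the highest counts of the 9 genes, at FPKM values of 223, 223, 220 and 209. The Tc9 libraries lay below the Tc1 libraries, and Tc9 replicate 1 did so by a small margin. Its log2 fold change was -0.09 ± 0.10 (SE, 2 libraries per group; 95% interval -0.31 to 0.14) with an adjusted p of 0.520 in edgeR, and it was 0.21 under quantile normalization. Without Tc9 replicate 1 the log2 fold change of *Cd8a* was -0.15, and without Tc9 replicate 2 it was -0.02. The FPKM ratio of *Cd8a* to *Cd8b1* was 1.14 and 1.09 in Tc1 and 0.921 and 0.775 in Tc9 cells, so *Cd8a* was the more abundant of the pair per length in both Tc1 libraries and *Cd8b1* in both Tc9 libraries. The tables list 5 transcripts for *Cd8a*, 3 of them named by the sequencing provider, and 1 for *Cd8b1*.

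**Figure D2:**
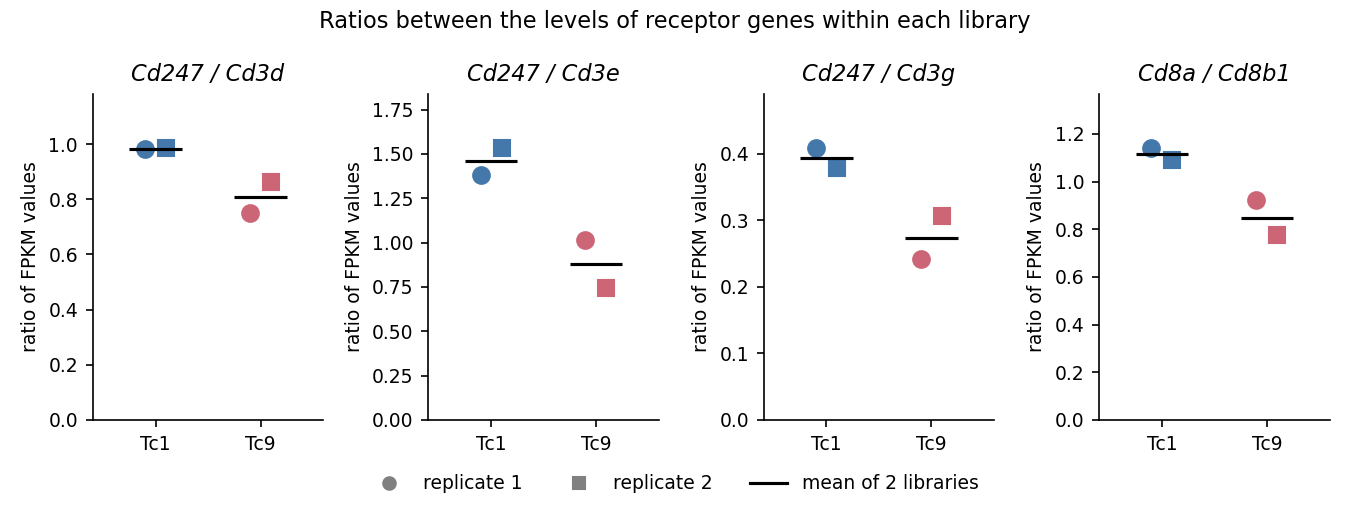
Ratios of FPKM values within each library (linear axes from 0), with circles for replicate 1, squares for replicate 2 and lines at the mean of 2 libraries. Both Tc9 libraries lie below both Tc1 libraries in all 4 ratios, and the Cd8a to Cd8b1 ratio goes from above 1 in Tc1 to below 1 in Tc9 cells.

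In all, edgeR called 2 of the 6 genes reached by 4 libraries higher in Tc9 cells, *Cd3e* and *Cd3g*, where 17.4% of all 1284 genes tested were called higher and 34.1% in either direction. It called 0 of the 6 lower, where 16.7% of all genes were, and 0 of the 6 were lower at an unadjusted p under 0.05 in edgeR, DESeq2 or limma (23.1% of all genes in edgeR). At an unadjusted p under 0.05, 4 of the 6 were higher in edgeR, where 22.9% of all genes were. The groups did not overlap for 5 of the 6 genes, 4 higher and 1 lower, which stands beside 70.4% of all genes tested (34.7% higher and 35.7% lower). These 6 genes had a median log2 fold change of 0.27, beside 0.0014 for all genes tested.

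The kinase *Lck* and the adaptor *Lat* were reached by a single Tc1 library, and neither differed from it beyond the spread of the Tc9 libraries. *Lck*, at chr4:129548344-129573641 on the minus strand, encodes the SRC-family kinase that binds CD8 and phosphorylates the ITAMs. Its counts were 15556 in Tc1 replicate 2 and 14186 and 17443 in the Tc9 libraries, at FPKM values of 247, 231 and 286. The Tc1 library lay between the Tc9 libraries. In edgeR its log2 fold change was 0.02 ± 0.23 (SE, 1 Tc1 and 2 Tc9 libraries; 95% interval -0.53 to 0.58) with an adjusted p of 0.951, and its sign turned under DESeq2, at -0.019. With Tc9 replicate 1 left out the value was 0.17 and with Tc9 replicate 2 left out it was -0.13, with no test.

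*Lat*, at chr7:126363827-126369705 on the minus strand, encodes the membrane adaptor that ZAP70 phosphorylates. Its counts were 6962 in Tc1 replicate 2 and 6710 and 8987 in the Tc9 libraries, at FPKM values of 192, 189 and 255. The Tc1 library lay close to Tc9 replicate 1 and below Tc9 replicate 2. The log2 fold change was 0.17 ± 0.26 (SE, 1 Tc1 and 2 Tc9 libraries; 95% interval -0.46 to 0.81) with an adjusted p of 0.704 in edgeR. Without Tc9 replicate 1 it was 0.37 and without Tc9 replicate 2 it was -0.05, with no test. Of these 2 genes, edgeR called 0 higher and 0 lower, where 7.51% and 3.2% of the 2622 genes tested in 3 libraries were called (10.7% in either direction), and 0 had an unadjusted p under 0.05 in edgeR, DESeq2 or limma, where 26.7% of all genes did in edgeR. This fit has 1 residual degree of freedom and takes the single Tc1 library to vary like the Tc9 libraries, so that differences smaller than these intervals were not detectable.

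*Zap70*, at chr1:36761798-36782821 on the plus strand, encodes the kinase that docks on phosphorylated ITAMs. It had 3041 counts in Tc1 replicate 2 and 5065 in Tc9 replicate 2, and FPKM values of 49.3 and 79.9. The Tc9 library was 1.67-fold higher, a log2 ratio of 0.74 with a 95% Wilson interval from 0.67 to 0.80 that covers counting error only. There is no replicate check of this difference and no test. It is past the 1.5-fold used here as a rule of size, as were 20.7% of the 6161 genes compared between these libraries in this direction and 33.2% in either. The deposited transcript length of *Zap70* was 2075 bases in the Tc1 and 2196 in the Tc9 library. The table lists 5 transcripts for it, and the 2861 genes with 1 transcript in both tables all had equal lengths, while 456 of 4143 genes with several had.

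Over the same pair of libraries the other genes had log2 ratios of 1.06 for *Cd3e*, 0.37 for *Lat*, 0.35 for *Cd8b1*, 0.32 for *Cd3g*, 0.20 for *Cd3d*, 0.17 for *Lck*, 0.01 for *Cd247* and -0.15 for *Cd8a*. The ratio was positive for 8 of the 9 genes and for 52.4% of all 6161 genes compared, with a median of 0.32 beside 0.03 for all genes compared. Tc9 replicate 1 gave lower counts than Tc9 replicate 2 for *Cd3e*, *Cd247*, *Cd8b1*, *Lck* and *Lat*, so the replicate 2 libraries alone would put these 5 genes higher in Tc9 cells than the mean of the Tc9 libraries does.

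**Figure D3:**
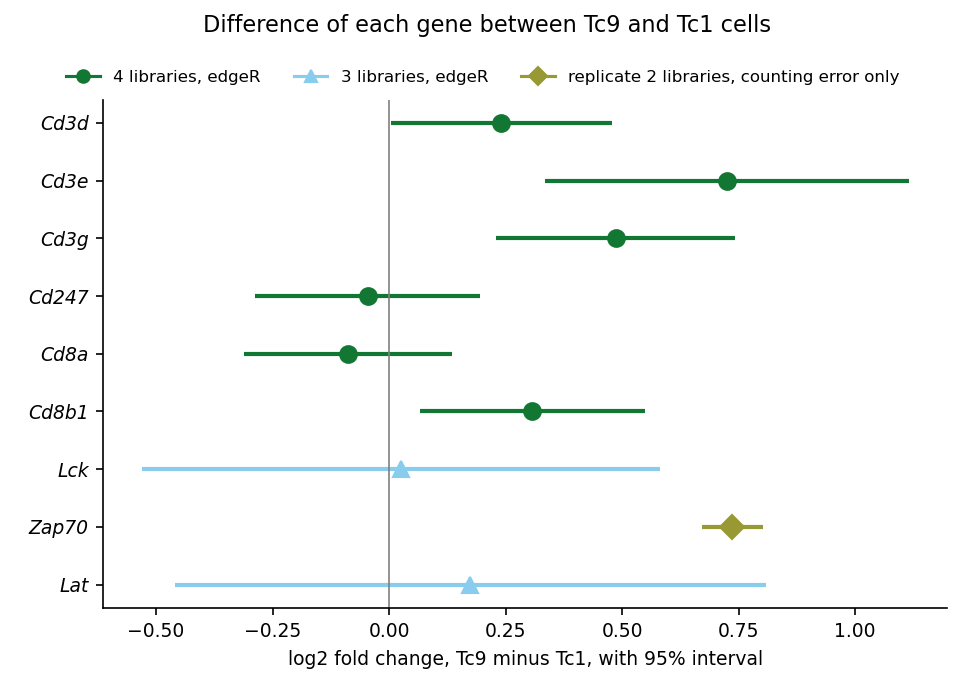
Log2 fold change of each gene, Tc9 minus Tc1, with 95% intervals: circles from edgeR on 4 libraries, triangles from edgeR on 3 libraries, and a diamond for Zap70 from the replicate 2 libraries, whose interval covers counting error only. The intervals of Cd3d, Cd3e, Cd3g and Cd8b1 lie above 0 before adjustment, and those of Cd247, Cd8a, Lck and Lat include it.

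The order of the levels by FPKM was led by *Cd3g* and closed by *Zap70* in both replicate 2 libraries. In Tc1 replicate 2 the order was *Cd3g*, *Lck*, *Cd8a*, *Cd8b1*, *Lat*, *Cd3d*, *Cd247*, *Cd3e* and *Zap70*. In Tc9 replicate 2 it was *Cd3g*, *Lck*, *Cd8b1*, *Lat*, *Cd8a*, *Cd3e*, *Cd3d*, *Cd247* and *Zap70*, and in that library *Cd3g* ranked 167 and *Zap70* 935 of the 15442 genes listed. Ordered by the mean of the Tc9 libraries, the neighbors *Lck* and *Cd8b1*, *Cd8b1* and *Lat*, *Lat* and *Cd8a*, *Cd3d* and *Cd3e*, and *Cd3e* and *Cd247* did not differ beyond the range of their replicates. In Tc1 cells none of the neighbors among the 6 genes measured in both libraries overlapped. The FPKM of *Lck* was 5.00 times that of *Zap70* in the Tc1 library and 3.58 times in the Tc9 library of replicate 2, with no replicate check.

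Around this core, 77 other genes of T cell receptor signaling were looked at in 4 groups: partners of the receptor at the surface, kinases and their regulators, adaptors and inhibitors, and second messengers and effectors. Of the 12 reached by 4 libraries, edgeR called 2 higher and 4 lower in Tc9 cells and 6 passed neither way, with a median log2 fold change of 0.03. Of all 1284 genes tested there, 17.4% were called higher and 16.7% lower. In the first group, 3 of the 4 genes tested were lower. *Cd5*, a surface inhibitor of receptor signaling, fell from 3617 and 3753 counts in the Tc1 libraries to 2233 and 2585 in Tc9 cells (a log2 fold change of -0.61 ± 0.12, SE, adjusted p = 0.00398 in edgeR). The groups were well apart for this gene. *Cd2*, an adhesion and costimulatory receptor, fell from 8703 and 9246 counts to 6784 and 6448 (-0.44 ± 0.10, SE, adjusted p = 0.0107 in edgeR). *Cd6*, a relative of *Cd5* that binds ALCAM, fell from 6994 and 7191 counts to 4806 and 5849 (-0.41 ± 0.12, SE, adjusted p = 0.0276 in edgeR).

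Among the adaptors and inhibitors, 1 gene was tested in 4 libraries. *Cbl*, a ubiquitin ligase that marks activated receptors for degradation, rose from 6680 and 6595 counts to 9656 and 9324 (0.52 ± 0.10, SE, adjusted p = 0.00408 in edgeR). Its groups did not overlap. Among the second messengers, 1 of 7 genes was higher and 1 lower, and both act in the entry of calcium from outside the cell. *Orai1*, the pore of the calcium channel, rose from 842 and 859 counts to 970 and 1486 (0.53 ± 0.18, SE, adjusted p = 0.0453 in edgeR). Without Tc9 replicate 2 its log2 fold change was 0.19. *Stim2*, a sensor of calcium in the endoplasmic reticulum, fell from 2765 and 2728 counts to 2170 and 2043 (-0.38 ± 0.11, SE, adjusted p = 0.0248 in edgeR). Without Tc1 replicate 1 or Tc1 replicate 2 the log2 fold change was -0.64 and -0.58 for *Cd5*, and 0.53 and 0.51 for *Cbl*. With 1 Tc1 library left, the spread comes from the Tc9 libraries alone, so whether these calls hold cannot be told. By limma after quantile normalization *Cd2*, *Cd6* and *Orai1* missed the threshold (adjusted p = 0.0609, 0.121 and 0.169). *Stim2*, *Cd6* and *Orai1* missed it in edgeR with no filter on low counts (0.0528, 0.0964 and 0.190). So did *Stim2* and *Orai1* with limma on log2(FPKM + 1) (0.0516 and 0.0669), and *Orai1* on log2(FPKM + 0.1) (0.0579).

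Of the 14 genes reached by 3 libraries, edgeR called 1 higher and 1 lower, where 7.51% and 3.2% of all genes tested there were called, so the counts are near the background. Their median log2 fold change was 0.25 beside 0.05 for all those genes. As for *Lck* and *Lat*, the spread of the single Tc1 library is taken from the Tc9 libraries, with 1 residual degree of freedom. *Dok2*, an adaptor that dampens signaling by recruiting RASGAP, rose from 1236 counts in Tc1 replicate 2 to 3371 and 4022 in the Tc9 libraries (1.58 ± 0.25, SE, 1 Tc1 and 2 Tc9 libraries, adjusted p = 0.0142 in edgeR). *Fcer1g*, the Fc receptor γ chain, an ITAM-bearing relative of the ζ chain, fell from 114 counts to 24 and 13 (-2.61 ± 0.39, SE, the same 3 libraries, adjusted p = 0.0128 in edgeR). These counts are far below those of *Cd247*. With no filter on low counts, both missed the threshold in edgeR (adjusted p = 0.209 for *Dok2* and 0.230 for *Fcer1g*). None of the 4 genes of the kinase group tested in these libraries passed the test.

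Of the 37 genes that only the replicate 2 libraries reach, 36 passed the filter on low counts, and 6 were past 1.5-fold higher and 7 past 1.5-fold lower in the Tc9 library, where 20.7% and 12.5% of all genes were. Their median log2 ratio was -0.03. Higher values were led by *Rasgrp1*, an activator of RAS downstream of LAT, with 5661 counts in the Tc1 and 12598 in the Tc9 library (log2 ratio 1.15). *Fyb*, the adaptor ADAP, had 4583 and 9257 counts (1.01), *Mapk3*, the kinase ERK1, had 1271 and 2507 (0.98), and *Plcg1*, the phospholipase recruited by LAT, had 4185 and 7673 (0.88). Lower values were led by *Sh2d1a*, the adaptor SAP, with 1241 and 418 counts (log2 ratio -1.56). *Txk*, a TEC-family kinase, had 212 and 89 counts (-1.23), *Sla*, an adaptor that lowers receptor levels, had 1892 and 899 (-1.07), and *Lax1*, an inhibitory membrane adaptor, had 1017 and 633 (-0.68). These ratios have no replicate check. A further 14 genes of the list were reached by no Tc1 table used here.

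**Figure D4:**
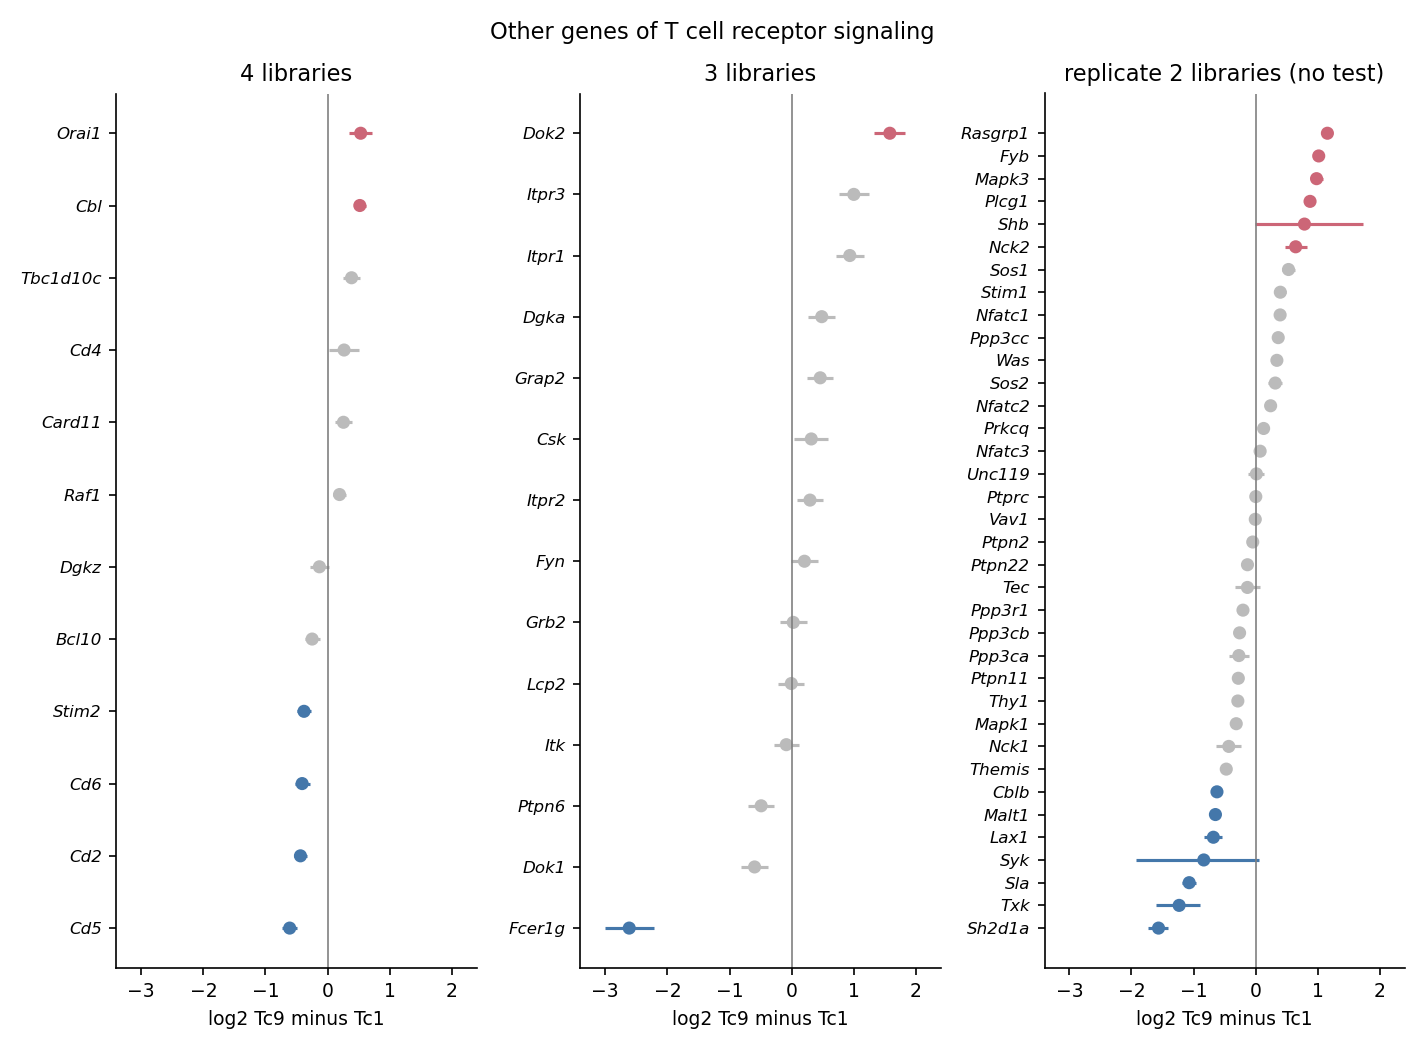
Log2 difference, Tc9 minus Tc1, of the other genes of T cell receptor signaling, for genes reached by 4 libraries (left), 3 libraries (middle) and the replicate 2 libraries alone (right). Bars are SE from edgeR at left and in the middle and 95% Wilson counting intervals at right, and red and blue mark genes called higher or lower by edgeR (left and middle) or past 1.5-fold (right, no test). Called genes lie on both sides of 0 in all 3 panels.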

How the data were processed

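RNA of sorted tumor-infiltrating Tc1 and Tc9 cells was measured in 2 libraries per group, grouped by the sample titles. Per library, the authors deposited the expected count of each gene, not normalized, and its FPKM, which they scaled by transcript length and library size, with a length in bases. The labels' processing notes name the build mm10, and the aligner and the counting program are not given in the sources used here. A gene not listed within the range of a table was taken as 0. The depth of Tc9 replicate 2 is the sum of its listed counts, and that of the others was scaled to it by the ratio of count over FPKM in genes of at least 500 counts. Wilson intervals and the floor of 3 counts, 0.0940 to 0.0973 CPM, cover counting error only, while the intervals of the edgeR fits rest on the spread between libraries.

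Expected counts were rounded and tested in edgeR 4.0.16 under R 4.3.3 (quasi-likelihood, two-sided, TMM factors of the 4-library range, filterByExpr at a minimum count of 10, Benjamini-Hochberg over all genes tested, threshold 0.05, no covariates). A table's last row with missing cells was dropped. The libraries of a group differed beyond sampling noise (chi-square per gene 4.40 for Tc1 and 40.8 for Tc9). The sources used here do not say which mice went into which pool, and p-values measure the spread between these pools. DESeq2 1.42.0 and limma 3.58.1 on log2(FPKM + 1) were alternatives, beside other scalings, filters, a replicate block and leaving out each library. Quantile normalization was applied to log2(FPKM + 1) and tested with limma. For the fits that leave out a library, which have 1 library in a group, effect sizes alone are given. The scripts were tested on simulated data.

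The genes, the signaling list and the markers were chosen with earlier results of these data known. The result of 1 marker is not reported here. Named signaling genes are those past the adjusted p threshold, up to 8 per direction and fit, and, for the replicate 2 libraries, up to 4 per direction past 1.5-fold with at least 50 counts in 1 library, by size.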

Additional observations from a re-analysis of the deposited data

How the results depend on the processing

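The 2 genes called higher by edgeR in 4 libraries, *Cd3e* and *Cd3g*, kept a positive log2 fold change under every alternative tried. The count of the 6 genes called higher was 0 with no filter on low counts, where 130 of all 1676 genes tested were called higher. Over omissions of a library, the log2 fold change ran from 0.40 to 0.99 for *Cd3e* and from 0.38 to 0.59 for *Cd3g*. The count called lower stayed at 0 under the other scalings, filters and tests. Without Tc9 replicate 1 the log2 fold change of *Cd8a* was -0.15, and without Tc9 replicate 2 it was -0.02. *Cd3e* missed the threshold by limma after quantile normalization (adjusted p = 0.0589) and in edgeR with no filter (0.1002). *Cd3g* missed it in edgeR with no filter (0.0562). *Cd8b1* passed it in edgeR under depth alone (0.0333), in DESeq2 (0.0361), and by limma after quantile normalization (0.0124) and on log2(FPKM + 1) (0.0437). *Cd3d* passed it by limma after quantile normalization (0.0476). The cause was not tested.

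The log2 fold change changed sign for *Cd247* under quantile normalization (0.087) and over omissions of a library (-0.11 to 0.017, positive without Tc9 replicate 1), for *Cd8a* under quantile normalization (0.21), and for *Lck* under DESeq2 (-0.019) and under TMM factors from the genes of its own range (-0.0050), which was added after seeing the data. Without Tc9 replicate 2, *Lck* (-0.13) and *Lat* (-0.05) also changed sign.

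Signaling genes called higher in 4 libraries, 2 as reported, were 1 with no filter, where 130 of all 1676 genes tested were called higher. They were 1 with limma on log2(FPKM + 1) and 1 on log2(FPKM + 0.1), where 208 and 216 of all 1284 genes were. Over omissions of a library, the log2 fold change ran from 0.49 to 0.54 for *Cbl* and from 0.19 to 0.81 for *Orai1*. Those called lower, 4 as reported, were 2 under quantile normalization, 2 with no filter, and 0 to 5 over omissions. In 3 libraries, where 1 was called higher, the count was 3 under depth alone, DESeq2, a minimum count of 50, limma on log2(FPKM + 1), own-range TMM factors and a threshold of 0.1, 2 with limma on log2(FPKM + 0.1) and 0 with no filter, and the 1 called lower became 0 with no filter. The 3-library calls over all genes ran from 0 to 535, and split into 197 higher and 84 lower as reported and 156 and 130 under quantile normalization. *Zap70*, the 1 receptor gene that only the replicate 2 libraries reach, was past 1.5-fold and not past 2-fold, which makes that count 0.

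Same-numbered libraries did not deviate together (correlation -0.065). The Tc1 libraries differed little from each other, so this cannot show whether same-numbered libraries shared a batch, and the sources used here do not say. With a replicate block edgeR called 444 genes of 1284, and the count of the 6 genes called higher stayed at 2. *Cd3e* (log2 fold change 0.70) and *Cd3g* (0.48) passed, while *Cd3d* and *Cd8b1* again missed the threshold (adjusted p = 0.222 and 0.0848 in edgeR). The block pairs libraries by a number of unknown meaning, so it adds no evidence for these calls. A block could not be fitted to 3 libraries, and omissions there left no test. Depth does not limit the values of these 9 genes, which have at least 2758 counts.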
